A study of Mus musculus with 8 samples.

Results

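Transcripts of 32 genes that encode subunits of glutamate and GABA receptors were followed in the corpus callosum of PLP-150Q mice. The members were the rows of the raw count table whose symbol equalled one of 32 listed names, out of 41128 genes in the table. They comprised 4 AMPA (Gria1 to Gria4), 6 NMDA (Grin1, Grin2a to Grin2d, Grin3a) and 5 kainate receptor subunits (Grik1 to Grik5). There were also 6 metabotropic glutamate receptors (Grm2, Grm3, Grm4, Grm5, Grm7, Grm8), 9 GABA-A subunits (Gabra2 to Gabra5, Gabrb1, Gabrb2, Gabrg1, Gabrg3, Gabrd) and the 2 GABA-B subunits (Gabbr1, Gabbr2). All 32 were found, and all passed the filter on low counts. The rule used no measured value, but the listed names were chosen with earlier results of these data known.

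The study asked how gene expression in this white matter tract differed after LAQ treatment. PLP-150Q mice carry a fragment of mutant huntingtin with an expanded glutamine tract under a promoter that is active in oligodendrocytes. Every mouse of both groups carried this transgene, and no group without it was analysed here. Treatment began at 3 months of age and lasted 2 months, with LAQ at 5 mg/kg in one group and purified water in the control group, and the tissue was taken at 5 months. The abbreviation LAQ is taken here to mean laquinimod, a drug taken by mouth that modulates immune cells. Each group had 4 libraries, which are called control 1 to 4 and LAQ 5 to 8 after their replicate numbers. The design text counts as many mice, but no label ties a library to 1 mouse. Should libraries have shared a mouse, the p-values would reflect only differences between samples that may be technical.

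Fast excitation in the brain runs through AMPA, kainate and NMDA receptors, which are ion channels assembled from Gria, Grik and Grin subunits. Metabotropic glutamate receptors and GABA-B receptors act through G proteins, and GABA-A receptors are chloride channels built from alpha, beta and gamma or delta subunits. In white matter, oligodendrocyte precursors and astrocytes carry several of these receptors, and axons passing through release glutamate onto precursors.

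Library totals ran from 8790749 to 12021429 counted reads, and the lowest count of any member in a library was 109 (Grm8). Values are in CPM, the read count of a gene relative to its library's total, with totals scaled by the TMM method. The labelled tissue showed its defining transcripts, with the myelin gene Mbp at 6391 to 8887 CPM and the myelin gene Mog at 187 to 236 CPM. Markers of grey matter neurons were present too. Slc17a7, the vesicular glutamate transporter of cortical neurons, stood at 459 to 1228 CPM, and Ppp1r1b, a striatal neuron marker, at 232 to 1153 CPM. LAQ 7 stood apart from the other libraries. All 9 striatal markers tested were highest in LAQ 7 and lowest in LAQ 5, and their summed level was 4395 CPM in LAQ 7, 649 CPM in LAQ 5 and 1746 to 2313 CPM in the other 6 libraries. LAQ 7 was also lowest for 6 of 8 general neuronal markers and highest for 8 of 10 markers of mature oligodendrocytes. In bulk tissue, fewer cells of a type and less RNA per cell cannot be told apart. Results are therefore given with and without LAQ 7. The results without LAQ 7 still hold LAQ 5, so the groups are not made alike in striatal markers. The median log2 fold change of the striatal markers, LAQ minus control, was 0.09 with all libraries and -0.52 without LAQ 7.

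The sequences before the start sites of Grik5, Gabra3 and Gabra5 are shown because Grik5 and Gabra3 were the members whose groups did not overlap, and Gabra5 had the largest fold change. Each is the 250 bases before a RefSeq start site on GRCm38.p6, written 5′ to 3′ on the gene's own strand, which is the minus strand for all 3 genes. RefSeq gives 2 start sites for Gabra3, and the window shown lies before the outer one. Capitals mark GGGCGG (the SP1 box) or GGACAG (the right half-site of the REST repressor element), and a site on the opposite strand reads as its reverse complement. The motifs CAGCACC (the left REST half-site) and TGACGTCA (the cAMP response element) were searched on both strands too, and no 2 of the motifs overlapped in these windows.
Grik5, chr7:25072370-25072619: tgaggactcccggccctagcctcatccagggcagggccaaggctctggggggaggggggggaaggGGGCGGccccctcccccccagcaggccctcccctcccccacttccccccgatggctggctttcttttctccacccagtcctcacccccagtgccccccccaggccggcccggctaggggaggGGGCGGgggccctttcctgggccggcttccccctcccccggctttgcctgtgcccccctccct
Gabra3, chrX:72656920-72657169: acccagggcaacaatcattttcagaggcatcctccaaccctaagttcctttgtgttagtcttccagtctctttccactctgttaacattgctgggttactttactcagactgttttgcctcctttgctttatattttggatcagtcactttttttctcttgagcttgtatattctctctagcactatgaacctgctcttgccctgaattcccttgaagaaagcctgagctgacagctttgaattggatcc
Gabra5, chr7:57510060-57510309: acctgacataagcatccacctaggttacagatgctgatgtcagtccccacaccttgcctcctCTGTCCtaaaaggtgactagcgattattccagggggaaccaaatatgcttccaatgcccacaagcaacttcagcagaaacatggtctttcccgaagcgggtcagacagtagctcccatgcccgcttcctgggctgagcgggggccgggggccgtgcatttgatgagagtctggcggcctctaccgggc
The 3 windows were unlike in composition. That of Grik5 had 75.2% G and C and 2 SP1 boxes. That of Gabra3 had 42.4% G and C, no CpG pair and none of the motifs, and that of Gabra5 had 56.4% G and C, 9 CpG pairs and 1 GGACAG. The table of RefSeq start sites used here matched 23 of the 32 genes, with 30 windows in all. GGGCGG was in 15 of the 30 windows, against 32.7% of 32851 windows over all genes, and GGACAG was in 11 of 30, against 18.7%. CAGCACC was found in 1 window (Grm2, against 5.7% of all) and TGACGTCA in none (against 1.5% of all). The median G and C content was 61.6% over the receptor windows and 52.4% over all windows. These are matches of letters and not evidence of binding.

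Per length, the receptor genes spanned a wide range of levels. In control, Gria1, an AMPA subunit abundant in forebrain neurons, was the most abundant at 59.6 ± 8.34 CPM per kilobase of merged exons (SD, n = 4). Gabbr1 followed at 51.1 ± 2.21, and the spread of the pair overlapped. Grm3, Gabbr2, Gria2 and Grin1 formed a closely spaced set at 44.3 ± 3.86, 43.0 ± 1.35, 41.0 ± 1.95 and 39.2 ± 1.45 CPM per kilobase, where neighbours differed by less than the sum of their SDs. A second set held Gabrd (30.1 ± 2.38), Gabra5 (29.0 ± 9.07), Grik5 (27.1 ± 1.84) and Gabra4 (25.04 ± 1.12). Gabra5 varied most within it. From Gabrb2 at 16.3 ± 0.25 downward the levels declined in small steps, and the lowest were Grik1 (2.06 ± 0.12), Grin2a (1.66 ± 0.28) and Grm8 (1.56 ± 0.14). Merged exons count every annotated isoform, so genes with long untranslated regions such as Grin2a (17933 bases) and Grin2b (24842 bases) are set lower by this measure than short ones such as Gabrd (2875 bases). Gria2 (15548 bases) is likewise set lower relative to Gria1 (6043 bases).

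**Figure D1:**
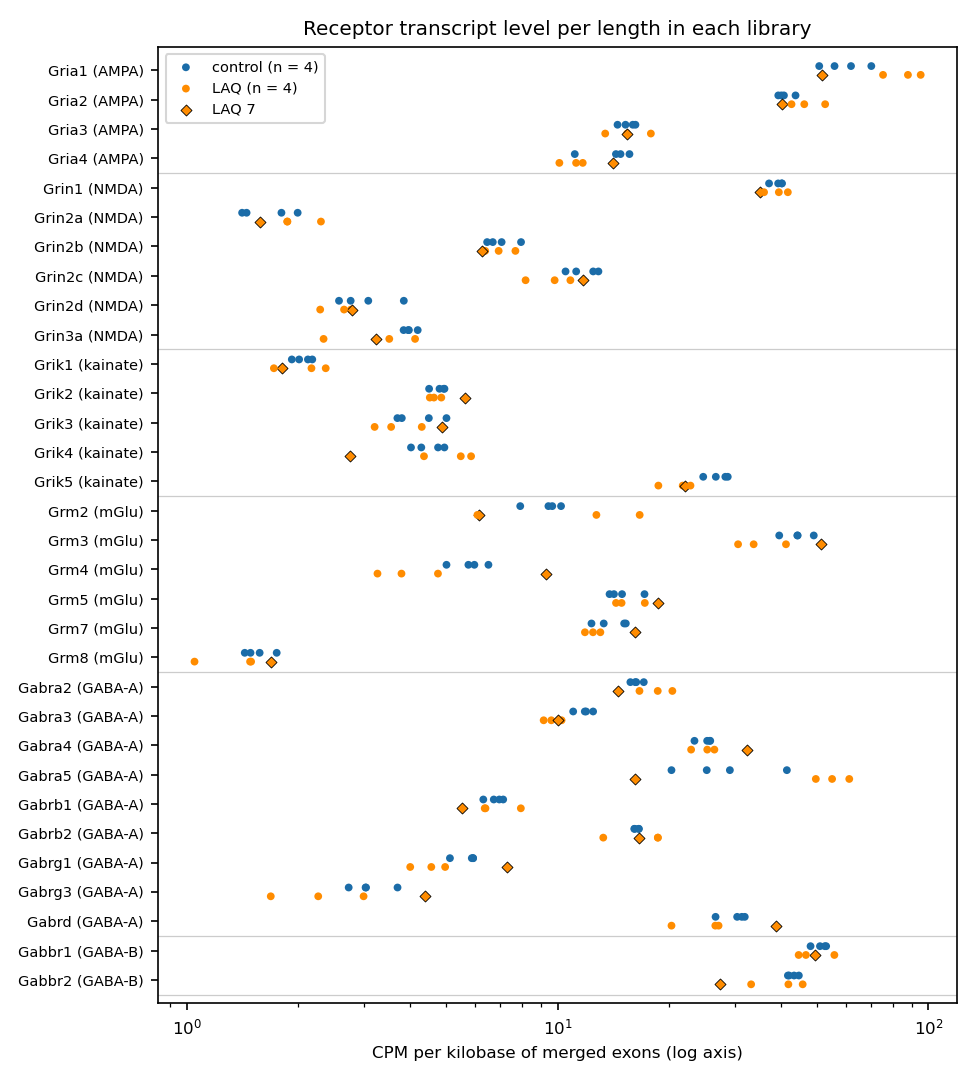
Level per length of each receptor gene in every library, in CPM per kilobase of merged exons on a log axis, for 4 control (blue) and 4 LAQ libraries (orange, LAQ 7 as diamonds), with genes grouped by receptor family. Gria1 and Gabbr1 lie at the right, Grin2a and Grm8 at the left, and the LAQ 7 diamond is the outermost point for Gabra5 and Grm4.

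No receptor gene passed the test between LAQ and control. At an adjusted p under 0.05 by edgeR's quasi-likelihood test, 0 of the 32 were called, and of all 15771 genes tested 0% were. At an unadjusted p under 0.05, 1 was higher in LAQ (Gria1) and 2 were lower (Grik5 and Gabra3), against 4.77% and 6.33% of all genes. The 3 of 32 are thus near the share among all genes. Of the 32, 2 had groups that did not overlap, both lower in LAQ (Grik5 and Gabra3), against 3.61% of all genes lower and 2.78% higher. The median log2 fold change of the 32, LAQ minus control, was -0.05, with 12 above 0 and 20 below, and that of all genes was -0.001. DESeq2, run as an alternative, called Grik5 alone among the 32, where it called 0.669% of all genes as lower. It gave 3 members at an unadjusted p under 0.05, against 6.68% of 25160 genes. Those include genes below the expression filter, which all 32 members passed, so the 2 shares are not on like terms. Voom with limma called 0 members and gave 2 at that threshold, against 11.3% of all genes.

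Without LAQ 7, 4 receptor genes were called, namely Gria1 and Gabra5 as higher and Grik5 and Grm4 as lower in LAQ. Of all genes, 0.736% were then called higher and 1.40% lower. At an unadjusted p under 0.05 there were 4 higher (Gria1, Gria2, Gabra2, Gabra5) and 9 lower (Gria4, Grin2c, Grik5, Grm3, Grm4, Gabra3, Gabrg1, Gabrg3, Gabrd), against 8.92% and 10.8% of all genes. The groups did not overlap for 2 higher genes (Gria1, Gabra5) and 4 lower genes (Grik5, Grm4, Gabra3, Gabrg1), against 7.88% and 8.69%. Leaving out any library other than LAQ 7 called no gene at all.

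**Figure D2:**
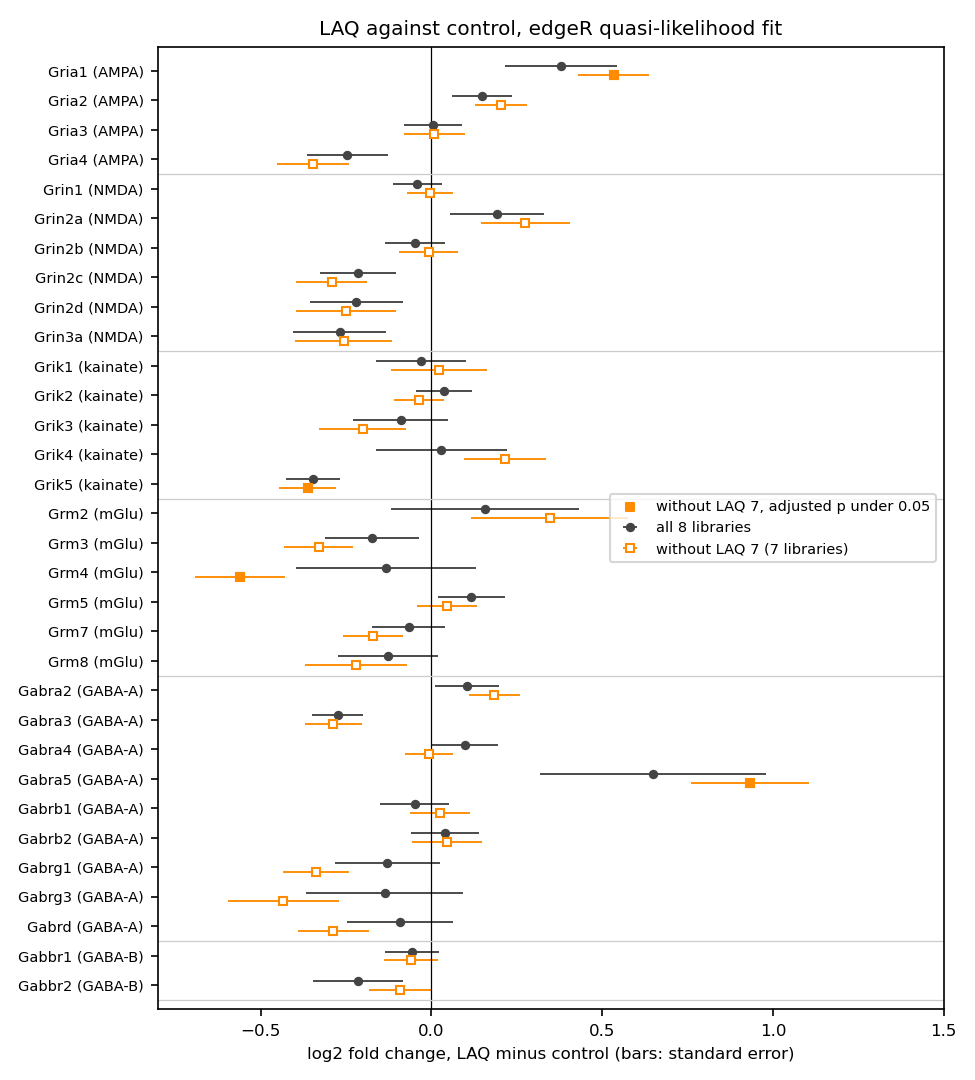
Fitted log2 fold change, LAQ minus control, with its standard error for each receptor gene, from all 8 libraries (dark circles) and without LAQ 7 (orange squares, filled where the adjusted p is under 0.05). Gria1 and Gabra5 lie to the right and Grik5 and Grm4 to the left as filled squares, and no gene was called with all 8 libraries.

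AMPA receptors carry most fast excitation, and Gria1 (chromosome 11, 57011387 to 57330244, GRCm38, plus strand) was their most abundant transcript per length, though not in CPM. Gria1 stood at 307, 374, 424 and 337 CPM in control 1 to 4 and at 532, 576, 312 and 456 CPM in LAQ 5 to 8. LAQ 5, 6 and 8 lay above every control, and LAQ 7 lay among the low controls. The log2 fold change was 0.38 ± 0.16 (SE, adjusted p = 0.429), and without LAQ 7 it was 0.53 ± 0.10 (adjusted p = 0.0253). Gria2, whose subunit limits the calcium permeability of the channel, stood at 612 to 681 CPM in control and at 719, 819, 624 and 664 CPM in LAQ (log2 fold change 0.15 ± 0.09, adjusted p = 0.546). Its groups overlapped through LAQ 7 and LAQ 8. Gria3 stood at 157, 150.3, 159.8 and 143 CPM in control and at 151.8, 176, 151.6 and 132 CPM in LAQ, with a log2 fold change of 0.00 ± 0.09. LAQ 6 was the highest and LAQ 8 the lowest of the 8. Gria4, expressed in interneurons and in oligodendrocyte precursors, stood at 93.2, 90.6, 70.1 and 98.5 CPM in control and at 63.7, 73.7, 89.1 and 70.7 CPM in LAQ (log2 fold change -0.25 ± 0.12, adjusted p = 0.467). Without LAQ 7 it was -0.35 ± 0.11 (adjusted p = 0.0971), and control 3 still lay among the LAQ values.

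Among NMDA receptor genes, Grin1, which encodes the subunit every NMDA receptor needs, stood at 360.5, 390.4, 390.1 and 381 CPM in control and at 383, 405, 342 and 349 CPM in LAQ. LAQ 7 was the lowest of the 8 and LAQ 6 the highest, with a log2 fold change of -0.04 ± 0.07. Of the merged exons of Grin1, 13.5% overlap the antisense gene Grin1os, and because the strand setting is not given in the sources used here, its level is uncertain. The Grin2 genes encode the glutamate-binding partners that set the channel's kinetics. Grin2a, which gains weight in the mature brain, stood at 26.0, 25.3, 35.7 and 32.3 CPM in control and at 41.2, 33.5, 28.2 and 33.5 CPM in LAQ (log2 fold change 0.19 ± 0.14). Grin2b, which prevails early in development, stood at 160.4, 166, 198 and 175 CPM in control and at 172, 158, 155 and 191 CPM in LAQ (-0.05 ± 0.09). The groups overlapped for both genes. Grin2c, found in astrocytes, ranged from 52.9 to 64.9 CPM in control and stood at 49.4, 54.5, 59.0 and 41.3 CPM in LAQ, with LAQ 8 the lowest (-0.21 ± 0.11). Grin2d, expressed in interneurons, ranged from 17.1 to 25.6 CPM in control and from 15.2 to 18.6 CPM in LAQ (-0.22 ± 0.14), and 9.66% of its exons overlap a gene on the other strand. Grin3a, whose glycine-binding subunit lowers channel conductance, was even across control at 47.2 to 51.5 CPM and spread in LAQ at 43.2, 50.7, 39.8 and 28.7 CPM (-0.27 ± 0.14). LAQ 8 was the lowest for Grin3a as for Grin2c. The adjusted p of the 6 NMDA genes ranged upward from 0.482.

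Kainate receptors are built from Grik1 to Grik3 subunits, which form channels by themselves, and from Grik4 and Grik5, which need such a partner. Grik5 (chromosome 7, 25009849 to 25072346, GRCm38, minus strand) was the most abundant and stood at 146, 138.0, 149 and 128 CPM in control and at 96.6, 112, 114 and 118 CPM in LAQ. All 4 LAQ libraries lay below all 4 control libraries, and LAQ 5 was the lowest. Its log2 fold change was -0.35 ± 0.08 (SE, adjusted p = 0.181). It was -0.36 ± 0.08 without LAQ 7 (adjusted p = 0.0428) and -0.34 ± 0.09 with DESeq2 (adjusted p = 0.0304). The unadjusted p was under 0.05 in all 17 alternatives tried, with log2 fold changes of -0.38 to -0.29 and adjusted p-values of 0.0304 to 0.702. Grik4 stood at 24.0, 29.5, 28.4 and 25.6 CPM in control and at 32.7, 26.0, 16.4 and 34.8 CPM in LAQ (0.03 ± 0.19). LAQ 7 was well below the other 7 for Grik4, and LAQ 8 and LAQ 5 above them. Grik1 ranged from 12.9 to 14.6 CPM in control and stood at 14.6, 15.9, 12.1 and 11.5 CPM in LAQ (-0.03 ± 0.13). Grik2 stood at 59.6 to 65.6 CPM in control and at 61.4, 64.3, 74.6 and 59.9 CPM in LAQ (0.04 ± 0.08), and LAQ 7 was its highest library. Grik3 stood at 40.3, 45.0, 33.2 and 34.1 CPM in control and at 31.9, 38.6, 43.7 and 28.8 CPM in LAQ (-0.09 ± 0.14), and its groups overlapped.

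The metabotropic glutamate receptors differed from each other in which LAQ library stood out. Grm2 and Grm3 encode group II receptors, which lower cyclic AMP. Grm3, abundant in astrocytes, stood at 149.6, 135, 121 and 135 CPM in control and at 103, 126, 156 and 93.5 CPM in LAQ (-0.17 ± 0.14, adjusted p = 0.673). Grm2, found at presynaptic terminals, stood at 38.8, 47.3, 46.2 and 50.0 CPM in control and at 81.5, 62.3, 30.1 and 29.7 CPM in LAQ (0.16 ± 0.28). For Grm2, LAQ 5 and 6 lay above all controls and LAQ 7 and 8 below all of them, and its exons overlap a gene on the other strand over 9.6% of their length. Grm4, Grm7 and Grm8 encode group III receptors, which restrain transmitter release. Grm4 (chromosome 17, 27422387 to 27521403, minus strand) stood at 38.9, 35.6, 30.0 and 34.3 CPM in control and at 19.5, 28.4, 55.5 and 22.7 CPM in LAQ. LAQ 5, 6 and 8 lay below every control and LAQ 7 above every control, at 2.36 times the mean of the other LAQ libraries. The log2 fold change of Grm4 was -0.13 ± 0.26 with all libraries (adjusted p = 0.891) and -0.56 ± 0.13 without LAQ 7 (adjusted p = 0.0467). It was highest in LAQ 7 and lowest in LAQ 5, as all 9 striatal markers tested were. The part of these cells in the difference was not tested. Grm7 stood at 72.6, 89.9, 78.4 and 89.0 CPM in control and at 69.7, 76.7, 95.0 and 73.3 CPM in LAQ (-0.07 ± 0.11). Grm8 stood at 17.3, 14.7, 14.2 and 15.6 CPM in control and at 10.4, 14.8, 16.7 and 14.7 CPM in LAQ (-0.13 ± 0.15). LAQ 5 was the lowest library for Grm4, Grm7 and Grm8. Grm5, a group I receptor coupled to calcium release, stood at 141 to 176 CPM in control and at 152, 176, 191 and 147 CPM in LAQ (0.12 ± 0.10).

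**Figure D3:**
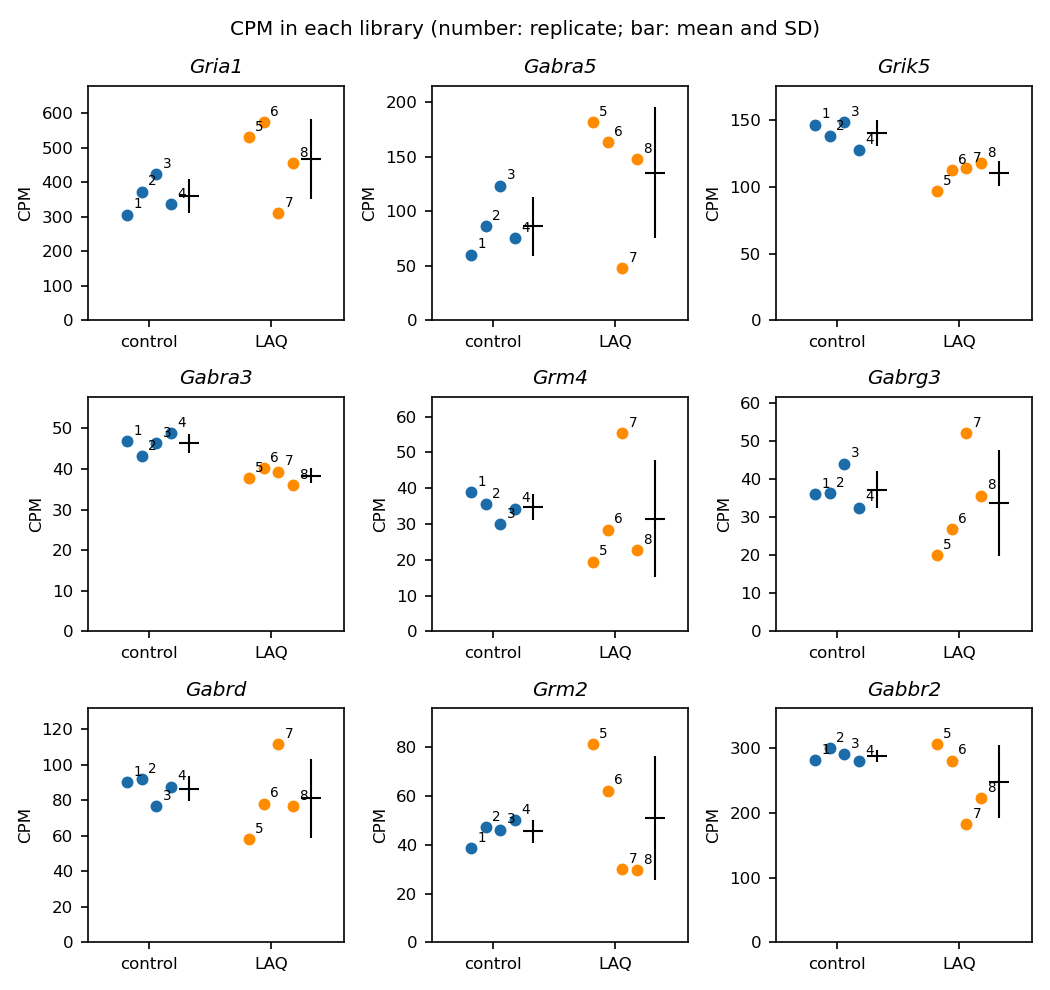
CPM of 9 receptor genes in each library (points, numbered by replicate), with the group mean and SD (n = 4) as a bar beside the points. The groups do not overlap for Grik5 and Gabra3, and LAQ 7 lies on the far side of the controls from the other 3 LAQ libraries for Gabra5 and Grm4.

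Among GABA-A genes, Gabra5 had the widest contrast between libraries. Gabra5 (chromosome 7, 57407672 to 57510059, minus strand) encodes a subunit of extrasynaptic receptors concentrated in the hippocampus. It stood at 60.3, 86.7, 123 and 75.1 CPM in control and at 182, 163, 48.1 and 148 CPM in LAQ. LAQ 5, 6 and 8 lay above every control and LAQ 7 below every control, and 4.98% of its exon bases overlap a gene on the other strand. Its log2 fold change of 0.65 ± 0.33 was the largest of the 32 and was not called (adjusted p = 0.485). Without LAQ 7 it was 0.93 ± 0.17 (adjusted p = 0.0216). All 10 hippocampal and dorsal midline markers had fold changes above 0, with none called and 5 called without LAQ 7, among them C1ql2 and Tdo2. Their summed level was 273 to 372 CPM in control and 519, 486, 309 and 351 CPM in LAQ, and 1 of the 10 (Dsp) was at 0 in a library. With the score of that list as a covariate, an alternative chosen after the data were seen, the log2 fold change of Gabra5 was -0.17 ± 0.22 and that of Gria1 was 0.04 ± 0.12. For Grik5 it was -0.31 ± 0.09 and for Gabra3 -0.29 ± 0.09. The score, a mean of standardized log2 CPM, was -0.96 to 0.16 in control and 1.1, 0.93, -0.76 and 0.33 in LAQ. LAQ 5, 6 and 8 thus lay above every control in the covariate itself. The fit therefore cannot tell the part of these cells from that of LAQ, and neither part was tested. With this covariate 4 members had an unadjusted p under 0.05, all lower in LAQ, against 5.19% of all genes lower and 3.99% higher. They were Grik5, Gabra3, Gabbr2 (-0.47 ± 0.11) and Grin3a (-0.37 ± 0.15), and 0 were called. With the thalamic and habenular score as covariate instead, the log2 fold change was 0.13 ± 0.36 for Gabra5 and 0.09 ± 0.16 for Gria1. With the cortical score it was 1.15 ± 0.44 for Gabra5 and 0.74 ± 0.19 for Gria1.

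Gabra3 (chromosome X, 72432681 to 72656848, minus strand) encodes an alpha subunit carried by monoaminergic and other neurons. It stood at 46.8, 43.2, 46.4 and 48.9 CPM in control and at 37.7, 40.2, 39.4 and 36.0 CPM in LAQ. Every LAQ library lay below every control library, and LAQ 7 lay within the LAQ range. The log2 fold change of Gabra3 was -0.27 ± 0.08 (SE, adjusted p = 0.244), and its unadjusted p was under 0.05 in 16 of the 17 alternatives. Gabra2, an alpha subunit of synaptic receptors, stood at 120.0 to 130.4 CPM in control and at 127, 142, 111 and 156 CPM in LAQ (0.10 ± 0.09). Gabra4 and Gabrd encode subunits that join in extrasynaptic receptors of the thalamus, the striatum and the dentate gyrus. Gabra4 stood at 142 to 157 CPM in control and at 161, 154, 197 and 139 CPM in LAQ (0.10 ± 0.10). Gabrd stood at 90.2, 91.9, 76.7 and 87.6 CPM in control and at 58.3, 78.1, 112 and 76.5 CPM in LAQ (-0.09 ± 0.16). LAQ 7 was the highest of the 8 libraries for both. Among the gamma subunits, Gabrg1 stood at 46.5, 40.3, 46.6 and 46.2 CPM in control and at 35.9, 39.1, 57.3 and 31.5 CPM in LAQ (-0.13 ± 0.15). Gabrg3 stood at 36.2, 36.3, 44.2 and 32.6 CPM in control and at 20.1, 27.0, 52.3 and 35.8 CPM in LAQ (-0.14 ± 0.23). LAQ 7 was again the highest, and without it the log2 fold changes were -0.34 ± 0.10 for Gabrg1 (adjusted p = 0.0839) and -0.43 ± 0.16 for Gabrg3 (adjusted p = 0.162). The beta subunits, which every typical GABA-A receptor holds, were close to even. Gabrb1 stood at 87.2 to 98.7 CPM in control and at 88.4, 88.0, 76.5 and 110.1 CPM in LAQ (-0.05 ± 0.10). Gabrb2 stood at 102 to 105 CPM in control and at 118.5, 118.5, 106 and 84.4 CPM in LAQ (0.04 ± 0.10), where the 4 controls were the tightest of any member.

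GABA-B receptors are obligate pairs in which Gabbr1 binds GABA and Gabbr2 couples to the G protein. Gabbr1 stood at 411, 408, 396 and 373 CPM in control and at 347, 433, 384 and 363 CPM in LAQ (-0.06 ± 0.08), and the LAQ range enclosed that of the controls. Gabbr2 stood at 281, 299, 290.2 and 279 CPM in control and at 306, 280.2, 183 and 222 CPM in LAQ (-0.21 ± 0.13, adjusted p = 0.571). LAQ 7 and LAQ 8 lay below every control for Gabbr2, and LAQ 5 and LAQ 6 lay at control level or above.

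Shares within a family do not depend on library scaling, and they are given as shares of summed CPM per kilobase. They do depend on merged exon length, which sets genes such as Grin2b (24842 bases) and Gria2 (15548 bases) lower. In CPM, without division by length, the order was the reverse. Control means were 174.9 for Grin2b and 59.3 for Grin2c, and 638 for Gria2 and 360 for Gria1. Gria1 made up 42.0 to 49.6% of the 4 AMPA transcripts in control and 55.1, 53.7, 42.6 and 52.8% in LAQ 5 to 8. The share of Gria2, the subunit that restricts calcium entry, was 31.6 ± 0.80% in control and 30.4 ± 1.85% in LAQ (SD, n = 4). The ratio of Grin2a to Grin2b was 0.211 to 0.255 in control and 0.332, 0.293, 0.252 and 0.243 in LAQ. Grin2c made up 50.0 ± 3.67% of the 4 Grin2 transcripts in control and 47.1 ± 5.30% in LAQ. These 4 measures overlapped between the groups. Among Gabra2 to Gabra5, the alpha subunits followed here, Gabra5 made up 27.5 to 43.5% in control and 53.7, 50.4, 22.1 and 48.6% in LAQ. Gabra4 made up 27.0 to 35.0% in control and 23.2, 23.2, 44.3 and 22.4% in LAQ. LAQ 7 thus held the lowest share of Gabra5 and the highest of Gabra4. Gabra3 made up 12.4 to 16.2% in control and 8.44, 9.39, 13.7 and 8.98% in LAQ.

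**Figure D4:**
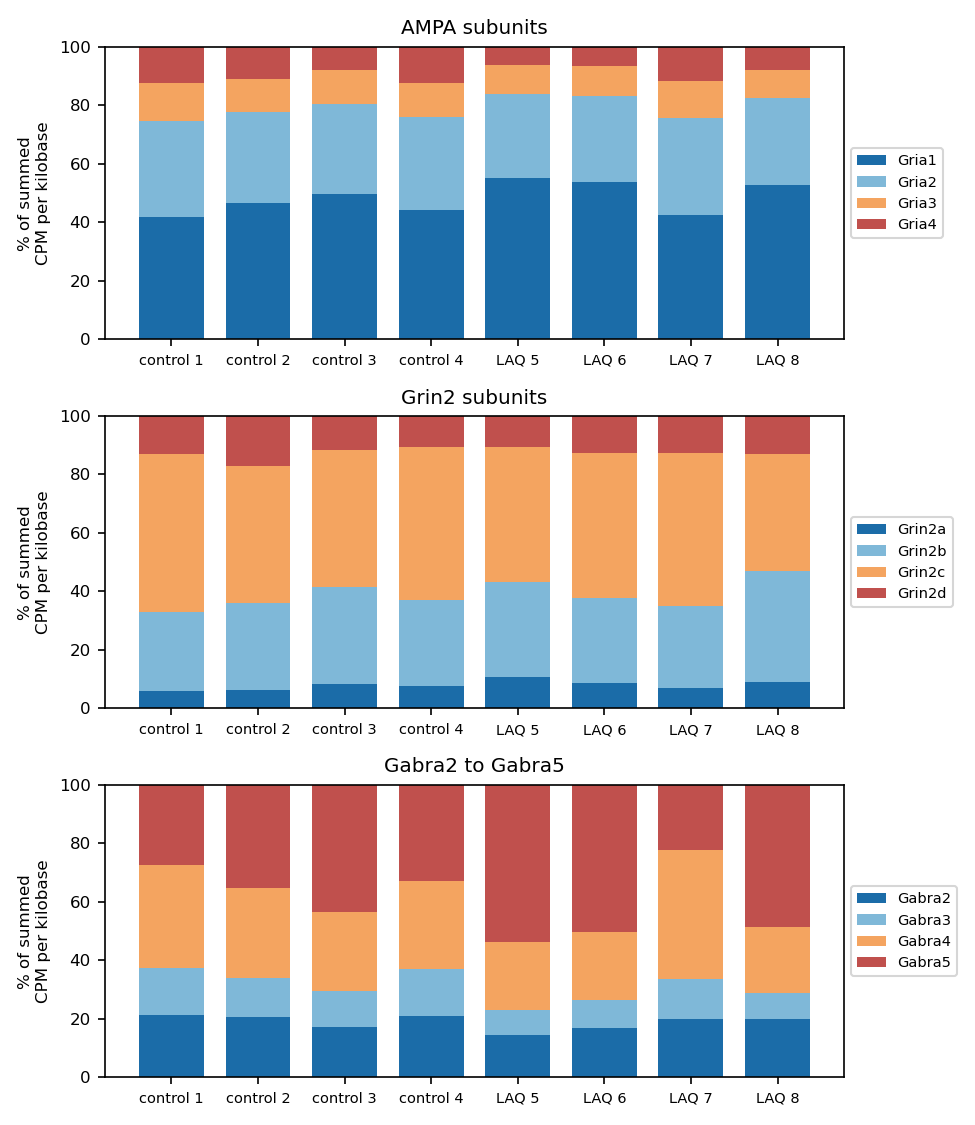
Stacked shares of summed CPM per kilobase in each library for the 4 AMPA subunits, the 4 Grin2 subunits and Gabra2 to Gabra5. Gabra5 takes 48.6 to 53.7% of the third set in LAQ 5, 6 and 8 and 22.1% in LAQ 7, where Gabra4 takes 44.3%.

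The receptor genes varied more among LAQ libraries than among controls. The SD of log2 CPM was greater in LAQ than in control for 28 of 32 genes (87.5%), against 63.7% of all genes tested. Without LAQ 7 it was greater for 24 of 32 (75%), against 52.7%. The median SD of the 32 was 0.12 in control and 0.22 in LAQ, and over all genes it was 0.14 and 0.18. The exceptions were Gria4, Grin2a, Grin2d and Gabra3. LAQ 7 was the highest library for 9 of the 32 (Grik2, Grm3, Grm4, Grm5, Grm7, Gabra4, Gabrg1, Gabrg3, Gabrd) and the lowest for 7 (Grin1, Grin2b, Grik4, Gabra2, Gabra5, Gabrb1, Gabbr2). Those are 28.1% and 21.9% of the members, against 15.8% and 16.1% of all genes. LAQ 8 was the lowest library for 11 of the 32, or 34.4%, against 14.2% of all genes. Among them were Grin2c, Grm3 and Gabrg1, which astrocytes express. The others were Gria3, Grin3a, Grik1, Grik3, Grm2, Gabra3, Gabra4 and Gabrb2. Of the astrocyte markers, 5 of 10 were also lowest in LAQ 8. Their list had a summed level of 5509 CPM there, against 5635 to 6331 CPM in the other libraries. The astrocyte marker Gfap went the other way, at 1065 CPM in LAQ 8 against 624 to 917 CPM in control. The part of astrocytes in those levels was not tested. LAQ 5 was the lowest for 9 members, or 28.1%, against 14.6%.

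**Figure D5:**
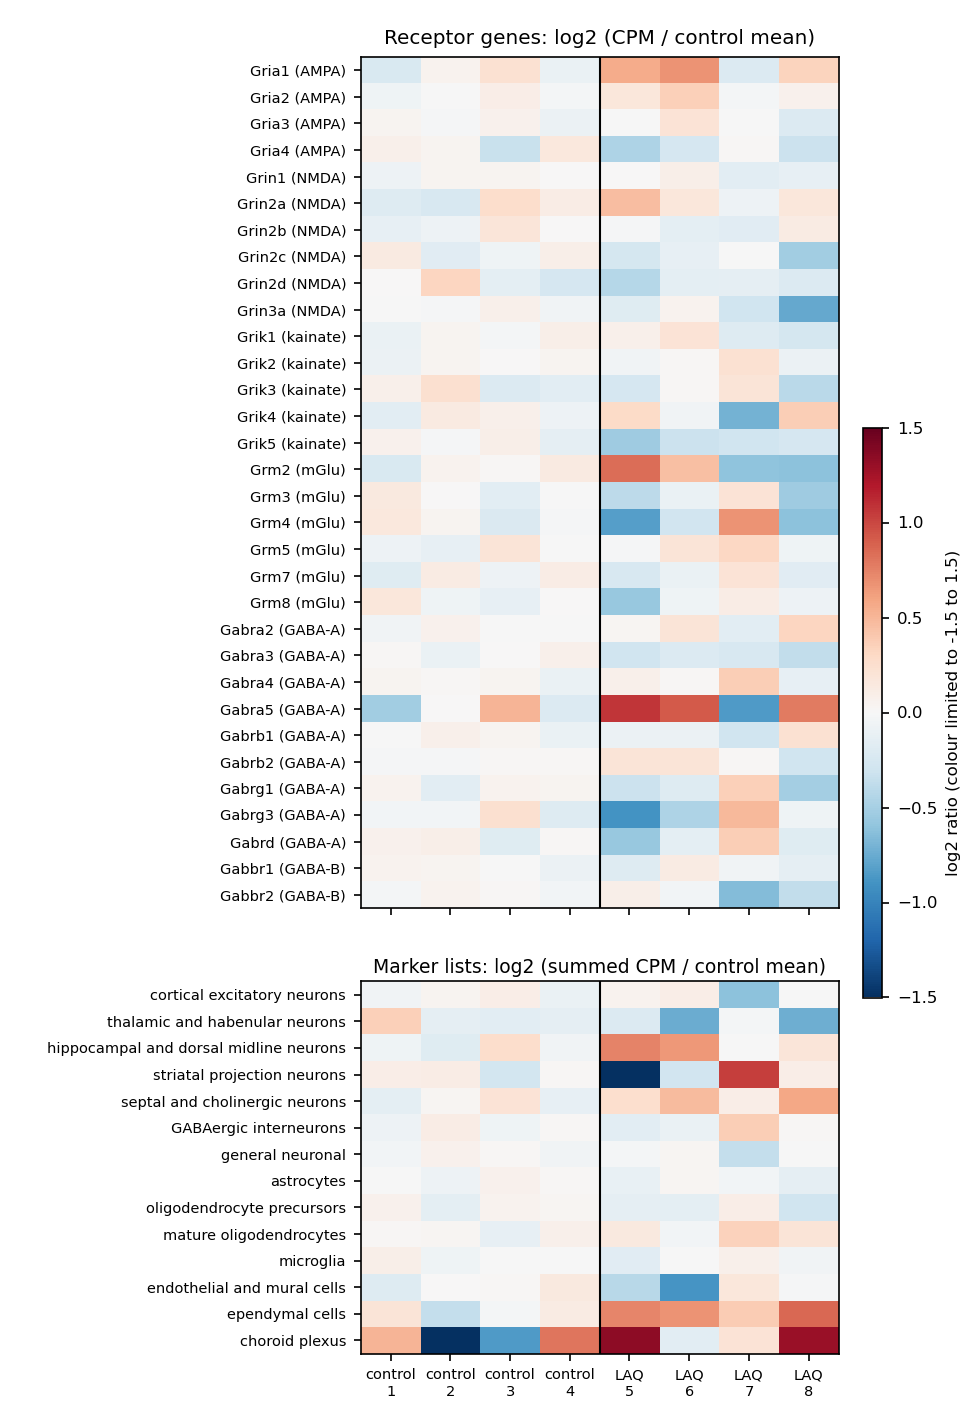
Log2 ratio of each library's value to the control mean, for the CPM of the 32 receptor genes (upper panel) and the summed CPM of 14 marker lists (lower panel), with control libraries left of the black line and LAQ libraries right of it. Controls are mostly pale in the upper panel, least so for Gabra5 (60.3 to 123 CPM in control). Gabra5, Grm2 and Grm4 show opposite colours among the LAQ libraries.

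The other genes of glutamate and GABA transmission were counted in 4 lists, and none of their genes was called with all 8 libraries. For comparison, 4.77% of all genes were higher in LAQ and 6.33% lower at an unadjusted p under 0.05. Of 15 receptor subunits that are not members, 9 passed the filter, and 0 had an unadjusted p under 0.05. Of the 17 auxiliary subunits, 15 passed the filter, with 1 higher (Cacng5) and 1 lower (Kctd16) at an unadjusted p under 0.05. Cnih2, which escorts AMPA receptors to the surface, had a log2 fold change of 0.34 ± 0.16 with all libraries and 0.49 ± 0.10 without LAQ 7 (adjusted p = 0.0329).

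Of the 15 genes of transmitter synthesis, uptake and vesicle loading, 1 was higher (Slc1a1) and 3 were lower (among them Slc6a11 and Slc1a2) at an unadjusted p under 0.05. The shares of all genes were 4.77% higher and 6.33% lower. Slc6a11, a GABA transporter of astrocytes, stood at 174, 167, 145 and 165 CPM in control and at 121, 120.0, 164 and 102 CPM in LAQ (log2 fold change -0.36 ± 0.12, adjusted p = 0.336). Without LAQ 7 it was -0.50 ± 0.08 (adjusted p = 0.0194). Of the 18 anchoring proteins and modulators, 0 were higher and 5 were lower (Dlg4, Shank2, Dlg2, Shank1, Shank3), against the 6.33% of all genes given above. Without LAQ 7, 3 were higher (Dlg3, Homer3 and Nsf) and 7 were lower at an unadjusted p under 0.05, against the 8.92% and 10.8% given above. On the same terms the counts were 3 higher and 1 lower for the other receptor subunits, 3 and 4 for the auxiliary subunits, and 1 and 4 for the transmitter genes. Dlg4, the scaffold PSD-95 of excitatory synapses, stood at 49.5, 56.8, 48.7 and 51.7 CPM in control and at 34.9, 46.1, 40.3 and 38.7 CPM in LAQ (-0.37 ± 0.09, adjusted p = 0.221), with no overlap between the groups. Dlg2 was called as lower without LAQ 7 (-0.36 ± 0.08, adjusted p = 0.0412).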

How the data were processed

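Poly(A) RNA of the corpus callosum was sequenced in 8 libraries (4 control, 4 LAQ). The authors deposited raw read counts per gene symbol, which are whole numbers whose totals differ between libraries, and a second table of normalized signal, which is the deposited count divided by 1 size factor per library (largest relative deviation 5.1e-15) and entered no test. Per the submitters' processing notes, the tools were DESeq2 1.10.1, HTSeq, STAR 2.5.2b and bcl2fastq 2.17.1.14, and the build was GRCm38.p3. Whether reads were counted by strand, with which annotation and after which filters is not given in the sources used here, so genes that overlap another on the opposite strand are uncertain. Each table has a column for each library and no other sample column.

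Of 41128 genes, 15771 passed edgeR's filterByExpr (minimum count 10, minimum total 15). LAQ was compared with control on the counts with edgeR 4.0.16 in R 4.3.3 (quasi-likelihood F test, TMM scaling, two-sided, no covariate). Benjamini-Hochberg adjustment ran over all genes tested (threshold 0.05). An SE is that of the fitted log2 fold change, derived from its F statistic. The steps were tested on simulated counts. The SDs of log2 CPM used a prior count of 2. Control libraries held 8790749 to 11972197 reads and LAQ libraries 9634156 to 12021429, and every pair of libraries within a group differed by more than counting error (chi-square per degree of freedom at least 4.24).

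The members and all gene lists were chosen with earlier results of these data known, so no count over a list is independent evidence. Values in every library are given for members with an unadjusted p under 0.05 or groups that did not overlap, for the most abundant member of each family, and for members that changed call or sign under an alternative, with ranges allowed where the 4 controls were close. From each of the other pathway lists, up to 3 genes of smallest p are named. Shank1, Shank3, Dlg3, Homer3, Nsf, Slc1a2 and the markers named beside a result were named after their values were seen. Some genes of these lists are not reported here. The alternatives were other scalings, filters and tests (DESeq2 1.42.0, voom with limma 3.58.1), marker scores as covariates and leaving out each library. Gene positions, exon lengths and overlaps came from GENCODE M21 on GRCm38, and start sites from RefSeq on GRCm38.p6. Levels per length divide CPM by merged exon length, which covers all annotated isoforms. Figures were drawn with matplotlib 3.10.9. Drd1 and Lhfpl3 of the marker lists were not matched to the table and were not used.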

Additional observations from a re-analysis of the deposited data

Results flagged for a closer look

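In 90 sets of 4 libraries, each the CPM of a member or a subunit share in one group, 5 held a library far from the other 3 by Dixon's test at its 95% level. Chance flags about 1 in 20 such sets, which would be 4.5 here. Gabrg1 in control 2 stood at 40.3 CPM, where the other controls stood at 46.2 to 46.6 CPM. The share of Gria3 among the AMPA transcripts was 13.2% in control 1 and 11.5% in the other 3 controls. The share of Gabra2 among Gabra2 to Gabra5 was 17.1% in control 3 and 20.7 to 21.3% in the others. In LAQ 7, the share of Gabra4 was 44.3%, against 22.4 to 23.2% in the other LAQ libraries, and that of Gabra5 was 22.1%, against 48.6 to 53.7%. The last pair comes from the same 4 genes of the same library and is not independent.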

How the results depend on the processing

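Leaving out each library in turn gave 0 to 339 called genes (0 to 2.13% of all genes) and 0 to 4 called members. There were 2 to 13 members at an unadjusted p under 0.05, where the share of all genes was 7.86 to 19.7%. The groups did not overlap for 2 to 6 members, where the share of all genes was 8.84 to 16.6%. The median member log2 fold change was -0.07 to -0.02. The highest counts all came without LAQ 7. Without control 3 the members at an unadjusted p under 0.05 numbered 5, against 10.7% of all genes. Without the expression filter, 25 genes were called (5 higher, 20 lower). In that setting 5 members had an unadjusted p under 0.05, against 8.78% of 25164 genes, many of them with low counts. DESeq2 called 129 genes (27 higher, 102 lower) and 1 member. With the cortical score as covariate, 13 genes were called, all lower. With it 6 members had an unadjusted p under 0.05, against 14.2% of all genes. The causes were not tested. Both other scalings, the filter at 1 CPM in 4 libraries, voom, and the thalamic and hippocampal covariates called 0 genes. Over the 17 alternatives, 489 of the members' fold changes kept their direction and call, 5 gained a call (Grik5 with DESeq2, and Gria1, Gabra5, Grik5 and Grm4 without LAQ 7) and 50 changed sign. None of the 50 had an adjusted p under 0.05.

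The log2 fold changes that changed sign were as follows. With voom and limma they were Gria3 -0.0008 and Grik4 -0.036. With the cortical score as covariate they were Grin1 0.088, Grik1 0.20, Grik2 -0.063, Gabra4 -0.032, Gabbr1 0.064 and Gabbr2 0.12. With the thalamic and habenular score they were Gria3 -0.030, Grik3 0.028, Grik4 -0.19, Grm4 0.20, Gabra2 -0.068, Gabrg1 0.055, Gabrg3 0.016 and Gabrd 0.045. With the hippocampal score, added after the data were seen, they were Gria3 -0.043, Grin2a -0.043, Grik3 0.094, Grik4 -0.26, Grm2 -0.41, Grm3 0.0022, Grm4 0.26, Grm7 0.076, Grm8 0.030, Gabra5 -0.17, Gabrb2 -0.034, Gabrg1 0.031, Gabrg3 0.14 and Gabrd 0.18. Leaving out each library in turn, the fold changes of the genes that changed sign ranged as Grik4 -0.10 to 0.22, Grik3 -0.20 to 0.0021, Grin2b -0.11 to 0.020, Gria3 -0.069 to 0.070, Grik1 -0.12 to 0.040, Grm2 -0.16 to 0.35, Grm4 -0.56 to 0.043, Gabrb2 -0.013 to 0.14, Gabrg3 -0.43 to 0.047, Gabrd -0.29 to 0.040, Grik2 -0.037 to 0.076, Gabra4 -0.0076 to 0.17 and Gabrb1 -0.15 to 0.025.

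No paired analysis was possible because the replicate numbers of the groups (1 to 4 and 5 to 8) are not shared. Counting error weighed most on the members with the lowest counts in a library, Grm8 (109), Grik1 (111) and Grin2d (160). The tests without LAQ 7 leave out a library seen to stand apart, so their calls describe 7 libraries and do not replace those from all 8. They keep LAQ 5, the library lowest in the striatal markers.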

Other observations

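Several GABA-A receptor genes are neighbours in the genome, and neighbours took different directions in the same libraries. On chromosome 7 (GRCm38), Gabrg3 (56716465 to 57387188) and Gabra5 (57407672 to 57510059) lie on the same strand, 20.5 kb apart. In LAQ 5, the library with the highest Gabra5 (182 CPM), Gabrg3 was at its lowest (20.1 CPM), and in LAQ 7, with the lowest Gabra5 (48.1 CPM), Gabrg3 was at its highest (52.3 CPM).

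On chromosome 5, Gabrg1, Gabra2, Gabra4 and Gabrb1 lie in a row. LAQ 7 was the highest library for Gabrg1 (57.3 CPM) and Gabra4 (197 CPM) and the lowest for Gabra2 (111 CPM) and Gabrb1 (76.5 CPM), so members of 1 cluster split between the extremes of the same library. LAQ 8 was the highest library for Gabra2 (156 CPM) and Gabrb1 (110.1 CPM) and the lowest for Gabrg1 (31.5 CPM) and Gabra4 (139 CPM), the reverse of LAQ 7. These orders were noticed in the values and were not tested.

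The extremes of the striatal markers, all 9 highest in LAQ 7 and lowest in LAQ 5, were shared by the members Grm4, Grm7, Gabrg3 and Gabrd. The order of the libraries between these extremes was not compared. Gabra5 and Gabbr2 had the opposite extremes, highest in LAQ 5 and lowest in LAQ 7.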
